A study of Aspergillus oryzae with 8 samples.

Results

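The enzyme genes of leucine, branched-chain amino acid and lysine synthesis followed here in Aspergillus oryzae were chosen by locus tag and are leu2A (AO090005001122), ilv3 (AO090023000127) and lysB (AO090005001561). They are 3 of 11880 genes listed in the count files, and all 3 had enough reads to be among the 9438 genes tested. They were singled out after their values under dithiothreitol (DTT) had been seen, so their differences between DTT and control are given as a description, without a test. RNA came from strain RIB40 of this koji mould in 4 conditions with 2 libraries each. In solid culture, mycelium grew on cellophane over agar, and in liquid culture in shaken flasks. Controls grew for 40 h at a stage that the labels call mid-logarithmic. Treated mycelium received 20 mmol/L DTT, which opens disulfide bonds in proteins and stresses the endoplasmic reticulum (ER). It was added to the flask in liquid culture. In solid culture, the cellophane was moved onto filter paper soaked with medium containing DTT, and no such move is described for controls. The labels state neither the time under DTT nor whether the 2 libraries of a condition were grown separately. The p-values therefore reflect the spread of these libraries alone, which may be technical. The listed medium held nitrate and glucose and no amino acids in all 4 conditions.

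Fungi make their own branched-chain amino acids and lysine. Dihydroxyacid dehydratase, the product of ilv3, is an iron-sulfur enzyme shared by the valine and isoleucine pathways, and the leucine branch starts from the precursor of valine. The product of leu2A, 3-isopropylmalate dehydrogenase, acts late in that leucine branch. Lysine is made through alpha-aminoadipate, and the product of lysB, homoisocitrate dehydrogenase, belongs to the same enzyme family as 3-isopropylmalate dehydrogenase. These roles are known from budding yeast and other Aspergillus species, and the files themselves give only locus tags.

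The libraries held 5880753 to 8912897 reads on genes, of which 8.2% to 37.6% fell on rRNA genes. A floor of 3 reads corresponded to 0.337 to 0.51 CPM, here the read count scaled to library size alone, without the further scaling given below. As a check of the treatment labels, the ER chaperone gene bipA stood at 765 ± 51.8 and 398 ± 121 CPM in the solid and liquid controls and at 8880 ± 611 and 7090 ± 2060 CPM under DTT (SD, n = 2 each). Replicate 1 of every condition had inserts of 500 bp and replicate 2 of 200 bp. All other CPM are further scaled by the trimmed mean of M-values (TMM). They measure a share of the RNA, so fewer active cells and less transcript per cell cannot be told apart.

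All 3 transcripts were most abundant in the solid control and least abundant in liquid culture under DTT. For leu2A, 346 and 423 CPM were measured in the solid control (replicates 1 and 2), 112 and 73.1 in the liquid control, 12.9 and 20.8 in solid culture with DTT and 9.03 and 2.96 in liquid culture with DTT. The libraries of the 4 conditions did not overlap, and both DTT conditions lay far below both controls. For ilv3, the same order gave 232.5 and 393 CPM, 38.5 and 53.5 CPM, 27.9 and 32.7 CPM, and 4.29 and 1.27 CPM. Again no conditions overlapped, but the liquid control and the solid DTT libraries lay close together. For lysB, 165 and 352 CPM were measured in the solid control, 30.5 and 43.7 in the liquid control, 21.7 and 29.2 in solid culture with DTT, and 21.7 and 13.3 in liquid culture with DTT. Here the solid control stood apart and the other conditions followed each other without a gap, with replicate 1 of both DTT conditions at almost the same level. In ilv3 and lysB replicate 2 of the solid control was clearly the higher library.

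**Figure D1:**
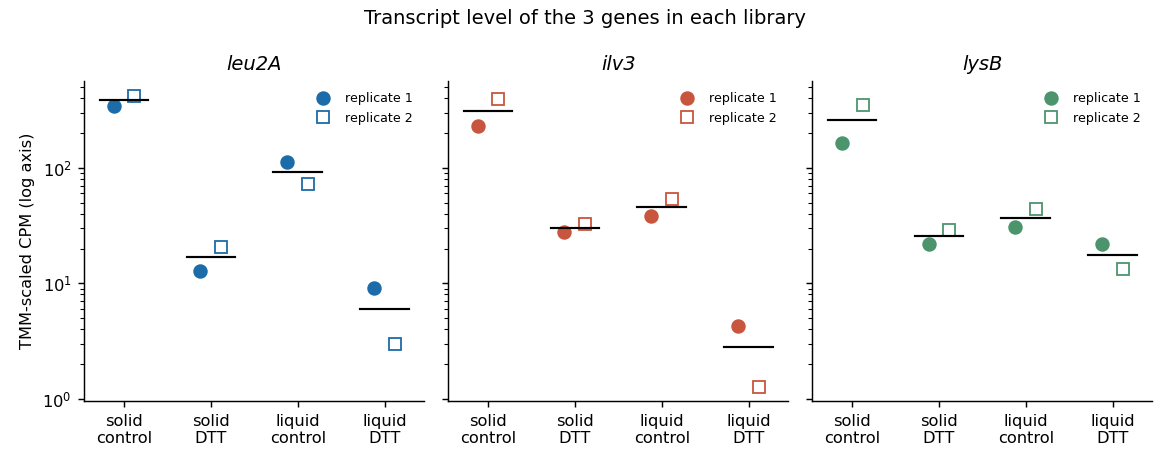
TMM-scaled CPM of leu2A, ilv3 and lysB (log axis) in the 8 libraries; filled circles are replicate 1, open squares replicate 2 and bars the mean of the 2. The solid control is the highest condition for each gene, and ilv3 drops to 4.29 and 1.27 CPM in liquid culture with DTT.

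The lowest levels rest on few reads. In liquid culture with DTT, ilv3 had 19 reads in replicate 1 and 12 in replicate 2, with exact 95% Poisson intervals of 11.4 to 29.7 and 6.2 to 21.0 that cover counting error only. leu2A had 40 and 28 reads there, and lysB 96 and 126. The covered part of the coding sequence was 33.5% and 28.8% for ilv3 in these libraries, 43.1% and 72.8% for leu2A and 78.9% and 97.9% for lysB. The median over genes was 68.0% and 94.7% in the same libraries, and 77.0% and 95.1% in the solid control. The covered part therefore differs between replicates for genes in general. In the solid control between 99.0% and 100.0% of each gene was covered. The read counts and the covered part need not rest on the same reads. In liquid culture with DTT, replicate 2, the gene AO090023000126 next to ilv3 had 0 reads but 14.2% covered. The 3 genes together took 4323 and 11079 reads in the solid control against 155 and 166 in liquid culture with DTT.

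In solid culture the transcripts of all 3 genes were lower under DTT in all 4 pairings of treated with control libraries. The log2 fold change from edgeR's fit was -4.51 ± 0.64 (SE) for leu2A, a 22.7-fold lower level, -3.36 ± 0.60 for ilv3 and -3.34 ± 0.54 for lysB. Ranked from the lowest fold change, these were places 61, 173 and 177 among 9438 genes. Of all tested genes, 4.44% passed the threshold as lower under DTT, namely a Benjamini-Hochberg adjusted p under 0.05, and the libraries of 31.8% did not overlap in that direction. The values of ilv3 and lysB depended on replicate 2 of the solid control, without which they were -2.92 and -2.67.

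In liquid culture the 3 genes parted. leu2A stood at -3.98 ± 0.64 and ilv3 at -4.12 ± 0.65, a 17.4-fold lower level under DTT, whereas lysB stood at -1.09 ± 0.50. The first 2 took places 243 and 210 from the lowest among 9438 genes, and lysB place 2290. For lysB the pairs of libraries ranged from -1.70 to -0.49 on the log2 CPM scale, and leu2A ranged from -5.13 to -2.98. In this culture 11.1% of all genes passed as lower, and 31.5% had libraries lower without overlap. Without liquid DTT replicate 1, leu2A stood at -4.96 and ilv3 at -5.17, and without liquid DTT replicate 2 at -3.31 and -3.36.

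Whether the DTT response differed between the cultures was tested as the difference of the 2 log2 fold changes, solid minus liquid. This measure and the culture comparisons below use the same libraries as the values that chose the genes, and earlier results of these data were known, so their p-values are not independent evidence. For lysB the difference was -2.25 ± 0.71, with a 95% interval of -3.85 to -0.64, an unadjusted p of 0.0114 and, in edgeR, an adjusted p of 0.314. For leu2A it was -0.52 ± 0.81 (adjusted p = 0.889 in edgeR; interval -2.35 to 1.30) and for ilv3 0.75 ± 0.80 (adjusted p = 0.814 in edgeR; interval -1.06 to 2.57). None of the 3 differences passed, 1 of them had an unadjusted p under 0.05, and DESeq2 called 0 of the 3. Over all genes edgeR called 0 (0%), with 1003 at an unadjusted p under 0.05, and DESeq2 called 211. Across the alternatives the adjusted p of lysB lay between 0.131 and 0.701. The difference for lysB was -1.62 without solid control replicate 2. That for ilv3 was 1.79 without liquid DTT replicate 1 and 0.06 without replicate 2. The sign for leu2A turned without liquid DTT replicate 1 (0.45), and its value was -1.14 without replicate 2.

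**Figure D2:**
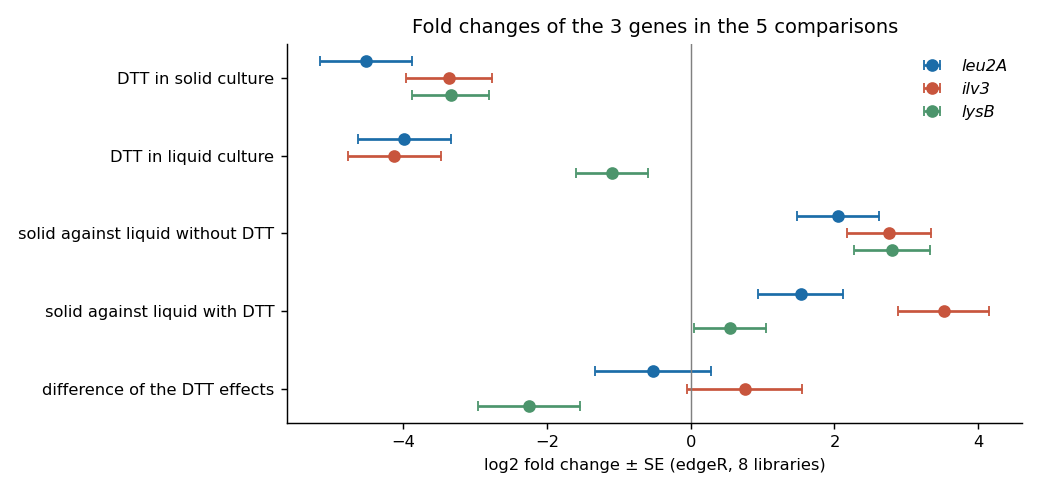
Log2 fold change ± SE of the 3 genes (edgeR, 8 libraries in 1 fit) in the 5 comparisons; negative values mean lower under DTT in the upper 2, lower in solid culture in the next 2, and a lower DTT fold change in solid than in liquid culture in the last. lysB is close to ilv3 for DTT in solid culture (-3.34 and -3.36, leu2A at -4.51) and apart from both in liquid culture (-1.09).

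Solid and liquid culture were then compared without DTT. ilv3 and lysB were higher in solid culture, ilv3 at 313 ± 113 against 46.0 ± 10.6 CPM and lysB at 258 ± 132 against 37.1 ± 9.35 CPM (SD, n = 2 each). The log2 difference was 2.76 ± 0.58 for ilv3 (adjusted p = 0.0359, edgeR's quasi-likelihood test) and 2.80 ± 0.53 for lysB (adjusted p = 0.0242, edgeR). leu2A stood at 384 ± 54.2 against 92.8 ± 27.8 CPM, a difference of 2.05 ± 0.57 with an adjusted p of 0.0905 in edgeR and 0.0494 with insert size as a block. Thus 2 of 3 were called higher in solid culture, where 2.23% of all genes were, and the libraries of all 3 did not overlap, as for 26.7% of all genes. A high solid control also enlarges the fall under DTT in solid culture. These counts are therefore not independent of how the genes were singled out. The call of ilv3 was lost without solid control replicate 1 (adjusted p = 0.0828) or 2 (0.202), liquid control replicate 1 (0.201) or 2 (0.123) and solid DTT replicate 1 (0.0517) or 2 (0.0639), all in edgeR. That of lysB was lost without solid control replicate 2 (0.15) and liquid control replicate 1 (0.151) or 2 (0.0848). leu2A was called without liquid DTT replicate 1 (0.045) or 2 (0.0481).

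Under DTT, ilv3 was again higher in solid culture, at 30.3 ± 3.40 against 2.78 ± 2.14 CPM (n = 2 each). Its log2 difference was 3.52 ± 0.63, an 11.4-fold higher level (adjusted p = 0.0281, edgeR's quasi-likelihood test). leu2A stood at 16.8 ± 5.57 against 6.0 ± 4.30 CPM, a difference of 1.53 ± 0.59 (adjusted p = 0.164 in edgeR; interval 0.19 to 2.86). This value was 2.5 without liquid DTT replicate 1 and 0.87 without replicate 2. lysB stood at 25.5 ± 5.31 against 17.5 ± 5.92 CPM, a difference of 0.55 ± 0.50 (adjusted p = 0.543 in edgeR; interval -0.58 to 1.68). So 1 of 3 genes was called higher in solid culture, as were 2.35% of all genes. A low level in liquid culture with DTT also enlarges the fall there, so this count is not independent of the choice either. The libraries of all 3 did not overlap, as for 28.8% of all genes in this direction. For lysB the gap was only 21.71 against 21.68 CPM, in replicate 1 of both cultures. The call of ilv3 was lost without solid control replicate 1 (0.0515) or 2 (0.0592), solid DTT replicate 1 (0.0631) or 2 (0.109) and liquid DTT replicate 2 (0.0513), and with only the 4 libraries compared (0.0678). Its difference was 4.56 without liquid DTT replicate 1 and 2.79 without replicate 2.

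Levels between genes were compared per kilobase of coding length, with lengths of 1095 bp for leu2A, 1848 bp for ilv3 and 1080 bp for lysB recovered from the coverage fractions. In the 4 control libraries the order was leu2A, lysB, ilv3 each time. Under DTT lysB was the highest of the 3 in all 4 libraries. The ratio of ilv3 to lysB, in CPM per kilobase, lay between 0.652 and 0.824 in the solid and liquid controls and in solid culture with DTT. It was 0.116 and 0.0557 in the 2 libraries of liquid culture with DTT. These 2 enzymes serve separate pathways. The ratio of their transcripts stood apart in the 2 libraries of liquid culture with DTT only, where ilv3 had 19 and 12 reads. Such ratios restate the DTT values seen before the genes were singled out, so they are no separate result. The ratio of leu2A to lysB was 1.18 to 3.63 in the controls and 0.219 to 0.701 under DTT, so it was below 1 in every treated library. In the solid control leu2A, per kilobase, was above 96.8% and 97.4% of tested genes with a recovered length, and in liquid culture with DTT above 40.7% and 21.8%. ilv3 went from above 92.1% and 95.4% to above 19.6% and 9.5%, and lysB from above 93.5% and 96.8% to above 60.1% and 47.8%.

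**Figure D3:**
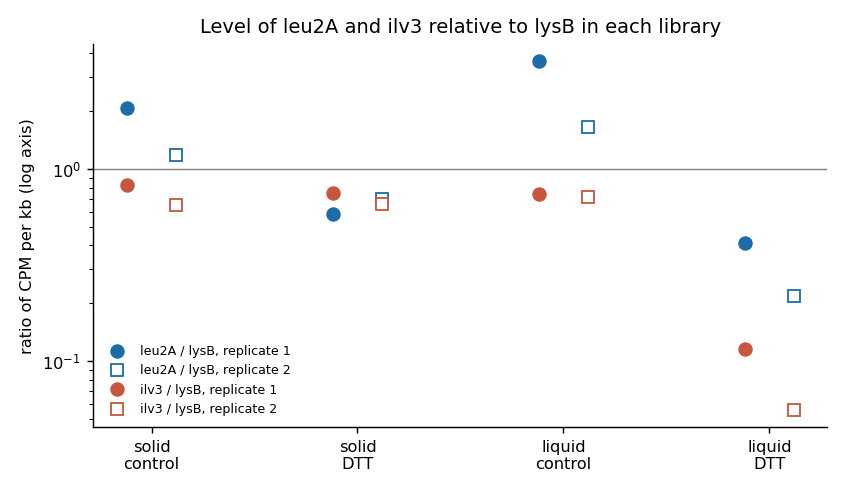
Ratio of leu2A and of ilv3 to lysB in CPM per kilobase of coding length (log axis) in each library; filled circles are replicate 1 and open squares replicate 2, and the grey line marks a ratio of 1. The ratio of ilv3 to lysB is between 0.652 and 0.824 in 6 libraries and 0.116 and 0.0557 in liquid culture with DTT.

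Other genes of the same pathways were found by symbol in the reference gene table, which names 714 of 12347 genes, so the pathways are covered in part. The branched-chain list held leu2A, ilv3 and the genes ilv3B (AO090009000414) and ilv3C (AO090010000053), which carry the name of the dehydratase. ilv3B stood at 31.1 ± 8.28 CPM in the solid control and 18.3 ± 2.34 with DTT, and at 10.7 ± 1.51 and 6.82 ± 6.65 CPM in liquid culture. Its DTT values were -0.77 ± 0.68 in solid and -0.69 ± 0.70 in liquid culture on the log2 scale, against -3.36 and -4.12 for ilv3. ilv3C had 3 and 0 reads in the solid control, 0 and 4 in the liquid control and 2 and 5 in solid culture with DTT, but 24 and 16 in liquid culture with DTT. In those last libraries ilv3C stood at 3.12 and 0.973 CPM per kilobase and ilv3 at 2.32 and 0.686. Its log2 change in liquid culture, 3.70 ± 1.34, had an adjusted p of 0.0812 in edgeR. The liquid libraries of ilv3B with DTT lay far apart, at 11.5 and 2.11 CPM. Its value was -2.33 without liquid DTT replicate 1, where it was called (adjusted p = 0.0483 in edgeR), and 0.16 without replicate 2. With all 8 libraries edgeR called neither ilv3B nor ilv3C in any of the 5 comparisons. At an unadjusted p under 0.05, 1 of the 2 stood out for DTT in liquid culture and 1 for solid against liquid culture with DTT. DESeq2 called 1 for DTT in liquid culture, as higher under DTT.

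In the lysine list of 5 genes, the later step gene lys9 (AO090003001086), which in budding yeast encodes a saccharopine dehydrogenase, fell with DTT in solid culture from 458 ± 199 to 70.3 ± 20.2 CPM. Its log2 change was -2.70 ± 0.55 (adjusted p = 0.0237, edgeR's quasi-likelihood test). The call was lost without solid control replicate 1 (0.0602) or 2 (0.143) and without solid DTT replicate 1 (0.154) or 2 (0.114). In liquid culture lys9 stood at -1.23 ± 0.53. hcsA (AO090003001165), the homocitrate synthase gene of the first step, stood at 0.45 ± 0.79 in solid and 2.03 ± 0.82 in liquid culture. Its 2 liquid libraries with DTT lay far apart, at 1374 and 381 CPM. lysF (AO090701000041), the homoaconitase gene just before lysB, stood at -0.68 ± 0.42 and -0.69 ± 0.42, and lys1 (AO090003000729), a saccharopine dehydrogenase gene, at -1.10 ± 0.73 and -0.82 ± 0.73. The latter was 0.40 without liquid control replicate 1. Without lysB, 1 of 4 genes was called with DTT in solid culture, with a median of -0.89 against -0.05 for all tested genes and 9.30% of genes called in either direction. In liquid culture 0 of 4 were called by edgeR, where 20.0% of all genes were, and the median was -0.75 against -0.03. The 2 at an unadjusted p under 0.05 went opposite ways, lys9 below 0 and hcsA above. DESeq2 called 1, as higher under DTT. Between the cultures none of these 4 genes was called by edgeR or DESeq2, without or with DTT, and the numbers at an unadjusted p under 0.05 were 1 and 0. In the culture comparisons 3.89% (without DTT) and 2.95% (with DTT) of all genes were called.

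**Figure D4:**
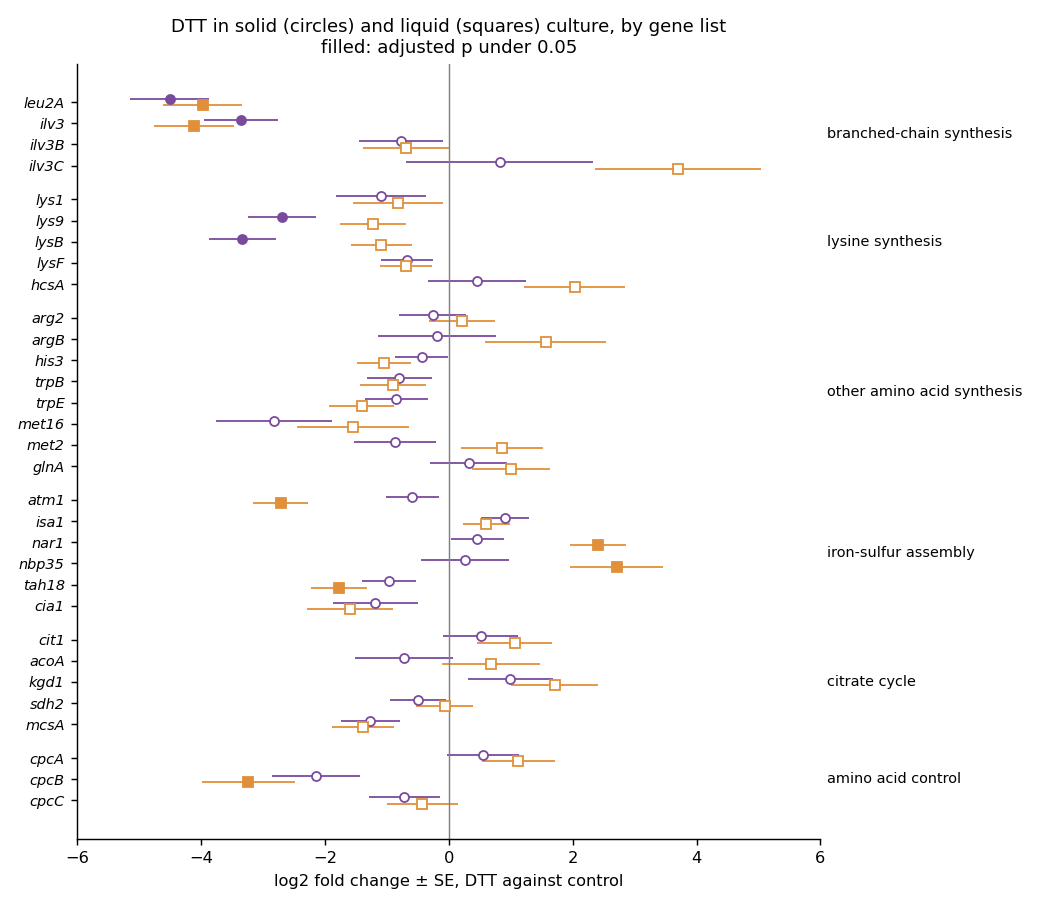
Log2 fold change ± SE with DTT in solid (circles) and liquid culture (squares) for the 31 genes of the 6 lists, filled where the adjusted p was under 0.05 in edgeR. leu2A, ilv3 and lysB lie from -4.51 to -3.34 in solid culture, and met16 and lys9 follow at -2.83 and -2.70. The 3 genes were singled out after these values had been seen, so their low place is no separate result. In liquid culture lysB, at -1.09, lies above met16 (-1.55), trpE (-1.41) and lys9 (-1.23).

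The list of 8 other amino acid synthesis genes had 0 calls by edgeR with DTT in either culture, where 9.30% (solid) and 20.0% (liquid) of all genes were called. At an unadjusted p under 0.05 there were 1 in solid and 2 in liquid culture, DESeq2 called 1 and 0, and edgeR with the block 0 and 1. The 2 in liquid culture were trpE (AO090003000371) at -1.41 ± 0.52 and his3 (AO090701000070) at -1.05 ± 0.44. Of the 8 genes, 7 lay below 0 in solid and 4 in liquid culture. The medians of the list were -0.62 and -0.35, against -0.05 and -0.03 for all tested genes. Among them, met16 (AO090020000347), the sulfate assimilation gene for PAPS reductase, had the lowest value in solid culture (-2.83 ± 0.94). It was called there without liquid DTT replicate 1 (adjusted p = 0.0144 in edgeR) or 2 (0.016), and in liquid culture without liquid DTT replicate 1 (-4.28, adjusted p = 0.0173 in edgeR, against -1.55 with all libraries). The glutamine synthetase gene glnA (AO090009000269) stood at 0.32 ± 0.62 and 1.0 ± 0.63. The ornithine carbamoyltransferase gene argB (AO090023000856) stood at -0.19 ± 0.95 and 1.56 ± 0.97, the latter -0.30 without liquid DTT replicate 1. The tryptophan synthase gene trpB (AO090026000284) stood at -0.80 ± 0.53 and -0.90 ± 0.53. Between the cultures edgeR called 0 of the 8, with 1 at an unadjusted p under 0.05 without DTT and 5 with DTT. With DTT, 4 genes lay above 0 and 4 below, at a median of -0.52 against 0.02. There his3 was higher in solid culture (1.68 ± 0.45), and argB (-2.44 ± 1.0) and glnA (-1.64 ± 0.64) were lower.

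Of the 3 general control genes of amino acid synthesis, edgeR called 0 with DTT in solid culture, with 1 at an unadjusted p under 0.05 and 1 called by DESeq2, and 1 in liquid culture. Of all genes, 9.30% and 20.0% were called in these comparisons. cpcA (AO090009000459), the Aspergillus counterpart of the yeast activator Gcn4, stood at 0.55 ± 0.58 in solid and 1.12 ± 0.59 in liquid culture with DTT. Its levels were 452 ± 70.8 and 660 ± 106 CPM in solid and 498 ± 163 and 1080 ± 517 CPM in liquid culture, control first. cpcC (AO090701000211), the counterpart of the sensor kinase Gcn2, stood at -0.72 ± 0.57 and -0.43 ± 0.57, and the latter was 0.36 without liquid control replicate 2 and 0.02 without liquid DTT replicate 1. cpcB (AO090009000264), which encodes a ribosome-associated WD-repeat protein, fell in liquid culture from 767 ± 216 to 81.1 ± 61.3 CPM, a log2 change of -3.24 ± 0.75 (adjusted p = 0.0204 in edgeR). This call was lost without liquid control replicate 1 (0.0747) or liquid DTT replicate 2 (0.0572) and with only the 4 libraries compared (0.0535), and the value was -4.34 without liquid DTT replicate 1. In solid culture cpcB stood at -2.15 ± 0.71, with an adjusted p of 0.0907 in edgeR, 0.0465 with the block and 0.0486 without liquid DTT replicate 1.

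The genes nearest in pattern were found by the root mean square difference of log2 CPM over the 8 libraries after centring each gene. For leu2A the nearest was sC (AO090020000349), the ATP sulfurylase gene of sulfate assimilation, at 0.422, followed by AO090009000395 (0.455) and AO090038000333 (0.615). sC stood at 583 ± 251 CPM in the solid control, 193 ± 24.8 in the liquid control, 39.6 ± 5.60 in solid culture with DTT and 12.3 ± 5.60 in liquid culture with DTT. For ilv3 the nearest were AO090701000189 (0.603), the ribosomal protein gene rps0 (AO090012000801; 0.606) and AO090003000805 (0.622). leu2A was the 19th nearest gene to ilv3, at 0.837, and lysB the 229th, at 1.325. For lysB the nearest were AO090005001490 (0.397), AO090023000330 (0.413) and AO090020000162 (0.457), and the nearest with a symbol was lys9, at 0.669. The 8 libraries share only 4 conditions, so many genes can take a like pattern. With Pearson correlation in place of this measure, 1 of the 3 nearest genes stayed the same for leu2A, 0 for ilv3 and 1 for lysB.

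The genes next to leu2A, ilv3 and lysB in the reference order were compared with them. leu2A and lysB lie on the same chromosome with 387 genes between them. Of the 6 flanking genes in the 5 comparisons, edgeR called 0 of 30 values, with 6 at an unadjusted p under 0.05. DESeq2 called 2, and 4 were called with the block. In these comparisons 9.30%, 20.0%, 3.89%, 2.95% and 0% of all genes were called by edgeR. Beside leu2A, AO090005001121 stood at -0.02 ± 0.52 with DTT in solid and -0.28 ± 0.52 in liquid culture. AO090005001123 stood at -0.61 ± 0.48 and -1.24 ± 0.49, below 0 as leu2A was, with an adjusted p of 0.106 in edgeR for liquid culture. Beside ilv3, AO090023000128 stood at 1.16 ± 0.40 in solid and 1.08 ± 0.40 in liquid culture, above 0 where ilv3 was below, with adjusted p of 0.101 and 0.0865 in edgeR and 0.0449 and 0.0416 with the block. On its other side AO090023000126 had 19 reads in the solid control and 4 in the liquid control, over 2 libraries each. With DTT it had 64 in solid and 0 in liquid culture, where 14.2% of it was nonetheless covered in replicate 2. Its DTT values were 1.37 ± 1.07 in solid and -4.3 ± 2.38 in liquid culture, the latter below 0 as ilv3 was. Between cultures with DTT it stood at 7.77 ± 1.94, above 0 as ilv3 was (adjusted p = 0.0703 in edgeR, 0.0453 with the block). Beside lysB, AO090005001563 stood at 0.65 ± 0.52 and 1.5 ± 0.53, the latter called with the block (adjusted p = 0.0358 in edgeR) and without liquid DTT replicate 1 (0.0432), and AO090005001560 at -0.96 ± 0.71 and 1.16 ± 0.73. The sources do not say whether strand was used in counting, so reads of overlapping or antisense genes could not be told apart.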

How the data were processed

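RNA of A. oryzae RIB40 was sequenced in 8 libraries, 2 per condition. Per the labels' protocols, poly(A) RNA was enriched with oligo-dT and copied from random primers, and each fragment end gave a read of 44 bp. Per the file headers, the deposited tables give mapped reads per gene, taken as raw counts, and a fraction of coverage, from whose denominators coding lengths were recovered (9324 tested genes; such lengths may be divisors of the true ones). Neither aligner nor genome build is given in the sources used here.

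The filter on low values was filterByExpr (minimum count 10), and TMM factors ran from 0.73 to 1.25. The quasi-likelihood test of edgeR 4.0.16 (R 4.3.3) was fitted once to all 8 libraries, with a coefficient for each condition, which left 4 residual degrees of freedom, and p-values were Benjamini-Hochberg adjusted over the 9438 genes of each comparison. Each SE is the log2 fold change over the root of F. DESeq2 1.42.0 was an alternative, as were its size factors, no filter, rRNA left out, only the libraries compared, and leaving out each library. The fit was tested on simulated data. Depth per library was 5880753 to 8912897 reads.

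Replicate numbers coincide with insert size in the labels, and the differences between replicates 2 and 1 correlated between conditions at 0.24 to 0.51 over genes, so insert size was used as a block in 1 alternative. Within each condition the 2 libraries differed beyond counting noise, with a chi-square per degree of freedom of at least 166.3.

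All 11880 locus tags matched the RefSeq gene table of assembly ASM18445v3, used for names and gene order only. The members, lists and tests were chosen with earlier results of these data known. Named were the 3 members, all genes of the branched-chain, lysine and control lists, up to 6 of each other list by number of calls and then CPM, the 3 nearest genes in pattern with the nearest that has a symbol, and flanking genes. Promoter and protein sequences were not used here, so the planned motif search and protein comparison were not run.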

Additional observations from a re-analysis of the deposited data

How the results depend on the processing

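Over all alternatives the members kept the sign of their values, except leu2A in the difference of the DTT effects, which ranged from -1.14 to 0.45 when 1 library was left out. Leaving out 1 library gave -4.96 to -3.31 for leu2A and -5.17 to -3.36 for ilv3 with DTT in liquid culture, and -3.71 to -2.92 for ilv3 and -3.80 to -2.67 for lysB in solid culture. Solid against liquid culture without DTT ranged from 1.72 to 2.39 for leu2A, 2.34 to 3.10 for ilv3 and 2.16 to 3.25 for lysB, and with DTT from 2.79 to 4.56 for ilv3. leu2A without DTT was called by DESeq2 (2.04, adjusted p = 0.0148) and with the insert-size block (2.09), and ilv3 with DTT was not called with only the libraries compared (3.51). The number of genes called with DTT in solid culture was 878, and 1672 by DESeq2, 1897 with the block and 6 to 1207 with 1 library left out. In liquid culture it was 1885, and 2984 with the block, 902 with only the libraries compared and 614 to 1581. For solid against liquid without DTT it was 367, and 890 by DESeq2, 569 without the filter, 771 with the block and 67 to 437. With DTT it was 278 (222 higher and 56 lower), and 1142 by DESeq2 (668 and 474), 610 without the filter (416 and 194), 992 with the block (648 and 344), 95 with only the libraries compared and 60 to 322. For the difference of the DTT effects it was 0, and 211 by DESeq2, 26 without the filter, 23 with the block and 0 to 7. Of the list counts, 25 of 174 moved by over 1.5 times under the other alternatives. DESeq2 gave 2 branched-chain, 2 iron-sulfur and 1 citrate cycle gene without DTT between cultures, 2 other synthesis, 2 iron-sulfur, 1 citrate cycle and 1 control gene with DTT, 1 other synthesis and 1 control gene for DTT in solid culture, and 1 lysine and 1 citrate cycle gene in liquid culture. The block gave 2 branched-chain and 1 iron-sulfur gene between cultures without DTT, 1 other synthesis, 1 citrate cycle and 1 control gene with DTT, 1 control gene for DTT in solid culture, and 1 other synthesis and 2 citrate cycle genes in liquid culture. With only the libraries compared there were 0 branched-chain and 0 iron-sulfur genes between cultures with DTT, 2 iron-sulfur and 0 control genes for DTT in liquid culture and 1 other synthesis gene in solid culture, which was 1 also without the filter. With 1 library left out, 41 of 240 list counts moved. They ranged from 0 to 2 (branched-chain and lysine, DTT in solid culture; branched-chain between cultures without DTT; iron-sulfur with DTT), from 1 to 4 (iron-sulfur, DTT in liquid culture) and from 0 to 1 for the others. The cause was not tested. Depth limits ilv3 most, with 12 reads in its lowest library.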

Other observations

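Genes of iron-sulfur cluster assembly, which supplies the cofactor of enzymes such as dihydroxyacid dehydratase, were called in both directions with DTT in liquid culture. Of 6 listed genes, 2 rose and 2 fell (2 and 3 with the insert-size block), where 20.0% of all genes were called, and the median was -0.50 against -0.03. atm1 (AO090003000411), for the mitochondrial exporter of the assembly pathway, fell from 174 ± 39.9 to 26.3 ± 6.24 CPM (SD, n = 2 each), a log2 change of -2.72 ± 0.45 (adjusted p = 0.00734, edgeR). It passed in all 8 fits that left out a library. nar1 (AO090003001020), of the cytosolic assembly machinery, rose from 37.8 ± 1.16 to 201 ± 61.5 CPM (2.41 ± 0.45, adjusted p = 0.01 in edgeR), a call lost without liquid control replicate 1 (0.0646) or 2 (0.0534). tah18 (AO090701000226), for a reductase of that machinery, fell by 1.77 on the log2 scale (adjusted p = 0.0267, edgeR), a call lost without liquid control replicate 1 (0.149) or liquid DTT replicate 1 (0.108). nbp35 (AO090012000208), a scaffold gene, was called at 2.71 ± 0.75 (adjusted p = 0.0369, edgeR), but stood at 0.78 without liquid DTT replicate 1, and its call was lost in 6 of 8 fits that left out a library. The further gene called with the block was cia1 (AO090005001633), at -1.60 ± 0.70 with an adjusted p of 0.135 in edgeR and 0.0216 with the block. It was -2.92 without liquid DTT replicate 1 (adjusted p = 0.0499 in edgeR). In solid culture edgeR called 0 of the 6 with DTT, with 1 at an unadjusted p under 0.05 and 0 by DESeq2. Between cultures with DTT, nar1 was lower in solid culture (-2.17 ± 0.44, adjusted p = 0.0382 in edgeR), a call lost in 7 of 8 such fits.

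The citrate cycle list held 5 genes, and edgeR called 0 of them with DTT in liquid culture, where 20.0% of all genes were called, with 2 at an unadjusted p under 0.05 and 1 called by DESeq2. Those 2 were kgd1 (AO090003001055), for a subunit of the 2-oxoglutarate dehydrogenase complex, at 1.71 ± 0.70, and mcsA (AO090009000568) at -1.39 ± 0.50. mcsA is the methylcitrate synthase gene, counted in the list although its enzyme belongs to the methylcitrate cycle. With the block the adjusted p of kgd1 and mcsA in edgeR was 0.0196 and 0.046, against 0.113 and 0.0786. mcsA was also called without liquid DTT replicate 2 (-2.05, adjusted p = 0.0451 in edgeR). The citrate synthase gene cit1 (AO090102000627) stood at 413 ± 103 and 859 ± 373 CPM in liquid culture and at 802 ± 250 and 1140 ± 249 CPM in solid culture, control first. The aconitase gene acoA (AO090003000415), which encodes an iron-sulfur enzyme as ilv3 does, stood at -0.73 ± 0.79 with DTT in solid and 0.68 ± 0.79 in liquid culture on the log2 scale. In liquid culture with DTT its libraries held 1483 and 339 CPM against 444 and 695 in the control, and the value was -0.75 without liquid DTT replicate 1.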
